A study of Mus musculus with 10 samples.

Results

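Semaphorins are secreted or membrane-bound guidance proteins, plexins are their signalling receptors, and neuropilins are co-receptors that let most secreted (class 3) semaphorins act through plexins of the A group. Binding usually makes a growth cone or migrating cell turn away or stall, and these proteins are known to direct axons and the migration of young neurons in the developing cerebellum. The genes were taken by symbol from a list of mouse semaphorins, plexins and neuropilins. All 31 were present among the 22552 genes of the expression table, as 20 semaphorins, 9 plexins and 2 neuropilins.

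RNA came from cerebella dissected from mouse embryos at stage E13.5, on a mixed C57BL/6;129 background, with 4 libraries of wild type (WT) and 4 of Ezh2 deletion (KO, as in the titles). The deletion embryos lost Ezh2 from a floxed allele through Cre driven by Pax7, so deletion is limited to cells with a history of Pax7 expression, and a Rosa-YFP allele was bred in to guide dissection. Whether the wild type embryos carried Cre or the YFP allele is not given in the sources used here. Ezh2 is the main enzyme that places the silencing mark H3K27me3 on histones, and the 2 ChIP-seq samples of that mark were not analysed here.

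Values are RPKM (reads per kilobase of gene and of mapped reads) as the authors deposited them, and total depth is unknown. Steps of whole reads in very low genes put relative depth at 1 to 1.35 in WT and 1.25 to 2.11 in KO, with WT 1 as 1 (exact two-sided permutation p = 0.0857). Whether each library is a different embryo is not stated, so a p-value here measures library-to-library spread, part of which may be technical. Ezh2 RNA stood at 73.6 to 84.7 RPKM in WT and 48.7 to 64.4 RPKM in KO, a KO mean of 69.3% of WT. It was at 53.8, 48.7, 51.1 and 64.4 RPKM in KO 1 to 4, so KO 4 kept the most. Xist, transcribed from the inactive X chromosome, was at 54.1 to 94.5 RPKM in KO 1, 2 and 3 and at no more than 0.094 RPKM in the other libraries. The Y-linked gene Ddx3y was at 7.92 to 9.43 RPKM in WT and KO 4 and at no more than 0.0219 RPKM in KO 1 to 3. Sex and genotype therefore cannot be told apart in KO 1 to 3, and KO 4 is the KO library to set against WT within libraries carrying Y-linked RNA. The Ezh2 log2 difference was -0.29 in that comparison and -0.53 with all libraries. Cerebellar identity was checked on 7 marker genes, of which Zic1, the most abundant, was at 174 RPKM in WT and 175 RPKM in KO. None was at 0, and 1 of the 7, Skor2, a corepressor gene of Purkinje cells named after its values were seen, was called lower (61.7 to 32.2 RPKM, limma adjusted p = 0.0087) and 0 higher. By limma 4 of the 7 had an unadjusted p under 0.05. Their log2 differences were above 0 in 4 of the 7 and below 0 in 3.

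The comparison of KO with WT found 2 members that differed. Nrp2, a neuropilin, fell to about 51.1% of its WT level, and Sema5b, a transmembrane semaphorin, rose to 123% of it. The other neuropilin, Nrp1, lay higher in every KO library and did not pass the test. Of the 31 members, 30 had a mean of at least 0.25 RPKM and were tested with limma on log2(RPKM + 0.25), with p-values adjusted over all 14279 genes tested. The count was 1 member higher and 1 lower at an adjusted p under 0.05. Over all genes tested the same rule called 3.45%, 2.71% as higher and 0.742% as lower, so the number of members called is near the background. Libraries of the 2 genotypes did not overlap in 3 of the 30 members, Nrp1 and Sema5b higher and Nrp2 lower, against 12.4% of all genes tested (6.79% higher, 5.61% lower). The median log2 difference was 0.016 over the members and -0.012 over all genes tested.

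**Figure D1:**
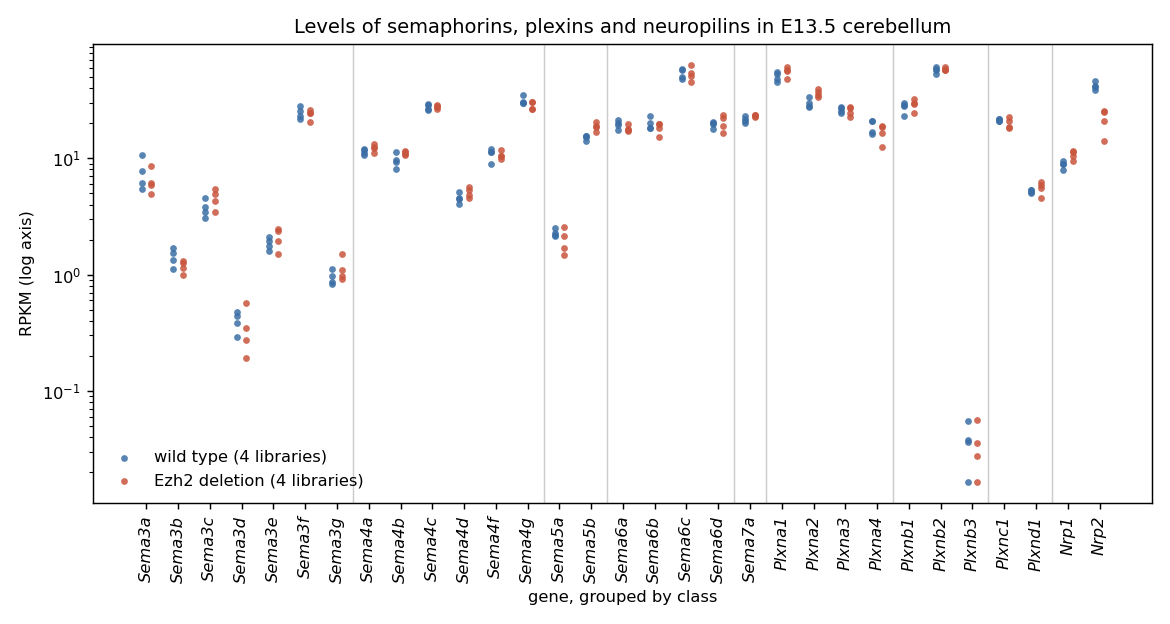
RPKM of each of the 31 genes (log axis) in 4 WT libraries (blue) and 4 KO libraries (red), with grey lines between classes. Plxnb2 is the highest gene in both genotypes and Plxnb3 the lowest, and Nrp2 is the gene whose red and blue points lie clearly apart.

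The neuropilins are single-pass membrane proteins with a short inner part, which bind secreted semaphorins and VEGF. They pass the semaphorin signal on through plexins. Nrp2 is the co-receptor preferred by Sema3f and Nrp1 that preferred by Sema3a. Nrp2 was at 40.8, 38.3, 41.9 and 45.9 RPKM in WT 1 to 4, and at 21.1, 24.9, 25.3 and 13.98 RPKM in KO 1 to 4. Every KO library lay below every WT library, and KO 4, the KO library with the most Ezh2 RNA, was the lowest. The means were 41.7 ± 3.16 RPKM in WT and 21.3 ± 5.24 RPKM in KO (SD, n = 4). This gave a log2 difference of -0.99 with a 95% interval of -1.40 to -0.59 (SE 0.176, limma adjusted p = 0.0207). An exact two-sided permutation test over the 70 arrangements of libraries gave p = 0.0286, the smallest it can give. Any gene whose groups do not overlap gets this value, so it adds nothing to the absence of overlap. In the order of WT levels Nrp2 was number 4 of the 31 members, and in KO it was number 11. Of the 106 genes called lower in the whole table, 10 had fallen further than Nrp2, and 1 of those 10 had a WT level at least as high.

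The size and the call of the Nrp2 difference depended on the libraries used. Without KO 4 it was -0.81 on the log2 scale (SE 0.081, limma adjusted p = 0.00068), and with KO 4 as the only KO library, within libraries carrying Y-linked RNA, it was -1.56 (SE 0.102, limma adjusted p = 0.00075, its lone KO library assumed to vary like WT, as in every comparison of KO 4 alone). The adjusted p rose to between 0.0503 and 0.075 without WT 1, 2, 3 or 4 or without KO 1, and the difference then stayed between -1.04 and -0.95.

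In bulk tissue, fewer cells of a type and less RNA per cell cannot be told apart, so markers of the cells of the cerebellum are given beside Nrp2. Of 9 tested markers of Purkinje cells, which send the output of the cerebellar cortex, limma called 4 lower and 0 higher (7 at an unadjusted p under 0.05). Over all genes tested 0.742% were called lower. Skor2, the gene called in the check of cerebellar identity, is also in this list and is 1 of the 4. The summed level of the 9 markers was 678, 635, 701 and 655 RPKM in WT 1 to 4. It was 472, 481, 433 and 371 RPKM in KO 1 to 4, lowest in KO 4 as for Nrp2. Pcp4, the most abundant of them, fell from 271 to 147 RPKM. The summed progenitor markers were 2419 to 2530 RPKM in WT and 1976 to 2156 RPKM in KO. Of these 8 genes limma called 1 lower and 0 higher (3 at an unadjusted p under 0.05). The gene called was Fabp7, a radial glia gene and the most abundant, which fell from 1661 to 1182 RPKM. Without Fabp7 the sum was 767 to 844 RPKM in WT and 842 to 1030 RPKM in KO, and 6 of the 8 genes had a log2 difference above 0. Markers common to neurons overlapped, at 3075 to 3271 RPKM and 2952 to 3466 RPKM, with 0 of 8 called by limma (2 at an unadjusted p under 0.05) and Tubb3 the most abundant at 1381 and 1423 RPKM. The part of these markers in the Nrp2 result was not tested.

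Nrp1 was at 9.001, 8.96, 7.92 and 9.42 RPKM in WT 1 to 4, and at 11.3, 11.4, 10.4 and 9.52 RPKM in KO 1 to 4. All KO libraries lay above all WT libraries, but the gap between KO 4 and WT 4 was small. The log2 difference was 0.26 (SE 0.079, 95% interval 0.088 to 0.44) and did not pass (limma adjusted p = 0.114). In KO 4 against WT it was 0.11 (SE 0.117, limma adjusted p = 0.658). Within a library the ratio of Nrp2 to Nrp1 does not depend on scaling between libraries. It was 4.53, 4.27, 5.29 and 4.87 in WT 1 to 4, and 1.86, 2.18, 2.44 and 1.47 in KO 1 to 4, so every KO library was below every WT library. Nrp2 made up 82.5% ± 1.33 of the summed neuropilin RPKM in WT and 66.0% ± 4.97 in KO (SD, n = 4). Nrp2 remained the higher of the 2 neuropilins in all 8 libraries. The summed level was 50.5 ± 3.39 RPKM in WT and 32.0 ± 5.91 RPKM in KO (SD, n = 4). These ratios and sums were formed after the values were seen and are given without a test.

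**Figure D2:**
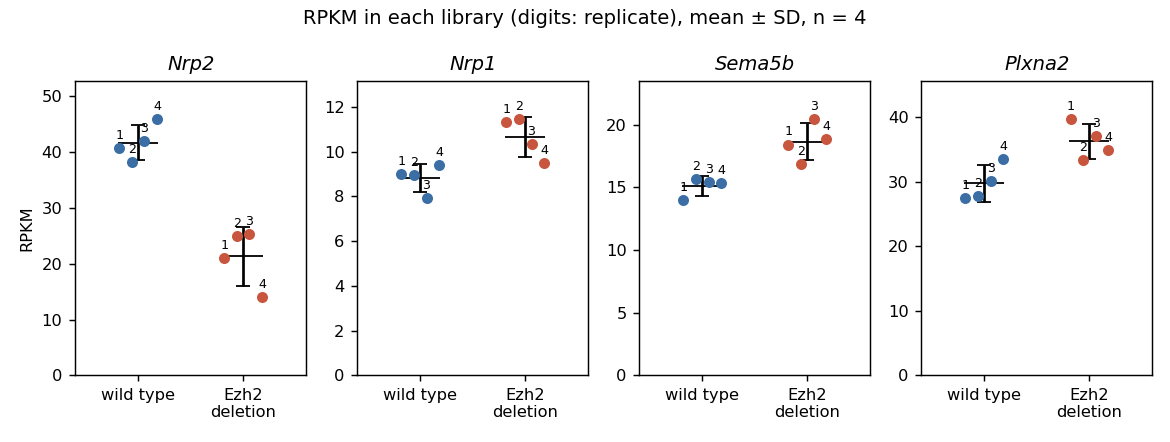
RPKM of Nrp2, Nrp1, Sema5b and Plxna2 in each library (points, with replicate numbers), with the mean and SD of 4 libraries per genotype (black). The KO libraries of Nrp2 lie between 13.98 and 25.3 RPKM, all below WT, and those of Nrp1 and Sema5b all above it, while Plxna2 overlaps in KO 2 and WT 4.

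Upstream sequences are shown for the neuropilins and for Sema5b, the member called higher. The log2 differences of the neuropilins had opposite signs, but only that of Nrp2 passed. CG dinucleotides are in capitals, since CG-dense promoters are the places where Polycomb marks are usually found in mammals. The 250 bases before the annotated start come from RefSeq on GRCm38.p6, whereas the expression table was made on mm9 per the submitters' processing notes.
Nrp2, chr1:62703067-62703316, plus strand: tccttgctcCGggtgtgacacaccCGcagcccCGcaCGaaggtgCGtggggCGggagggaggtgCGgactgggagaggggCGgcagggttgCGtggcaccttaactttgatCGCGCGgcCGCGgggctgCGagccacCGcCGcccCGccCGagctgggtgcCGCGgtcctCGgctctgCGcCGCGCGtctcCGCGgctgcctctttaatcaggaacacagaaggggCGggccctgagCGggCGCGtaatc
Nrp1, chr8:128358823-128359072, plus strand: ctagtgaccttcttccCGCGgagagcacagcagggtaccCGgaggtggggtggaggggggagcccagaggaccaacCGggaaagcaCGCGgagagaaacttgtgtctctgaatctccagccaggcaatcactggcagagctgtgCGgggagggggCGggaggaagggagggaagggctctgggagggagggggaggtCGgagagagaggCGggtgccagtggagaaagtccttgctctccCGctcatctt
Sema5b, chr16:35541112-35541361, plus strand: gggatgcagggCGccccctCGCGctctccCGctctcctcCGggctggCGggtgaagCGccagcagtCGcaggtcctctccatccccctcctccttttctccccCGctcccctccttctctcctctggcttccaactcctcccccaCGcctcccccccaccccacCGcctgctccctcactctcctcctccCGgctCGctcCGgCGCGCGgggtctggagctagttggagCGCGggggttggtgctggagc

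The Nrp2 window held 32 CG dinucleotides, the Nrp1 window 11 and the Sema5b window 19. At least as many were found in 4.58%, 35.6% and 19.7% of the 32851 windows of that length in the RefSeq table. The table matched 26 of the 31 members, with 37 windows since some genes have several starts, and their median was 13 CG against 6 over all windows. Sema3c had the most, with 39, and a window of Sema6c had 0. The motif CANNTG, which reads the same on both strands and is bound by many bHLH factors, was in 19 of the 37 windows and in 66.2% of all windows. It was absent from these letters of Nrp2, Nrp1 and Sema5b. These counts describe sequence and no binding or histone mark was measured on them here.

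Plexins carry the signal into the cell through a GTPase-activating inner domain that acts on small G proteins. By limma 0 of the 8 tested passed (1 at an unadjusted p under 0.05), and their log2 differences lay between -0.18 and 0.29. The largest was that of Plxna2, a receptor for class 6 semaphorins and, with neuropilins, for class 3. Plxna2 was at 27.5, 27.8, 30.1 and 33.6 RPKM in WT 1 to 4 and at 39.7, 33.5, 37.1 and 35.0 RPKM in KO 1 to 4. The groups overlapped because KO 2 lay just below WT 4. The log2 difference of 0.29 (SE 0.076, 95% interval 0.12 to 0.46) did not pass (limma adjusted p = 0.0777). It passed without WT 4 (0.35, limma adjusted p = 0.0451), and under 2 changes of scaling given in the closing section.

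The other A plexins held their WT order of Plxna1, then Plxna3, then Plxna4. Plxna1 had means of 50.1 ± 4.40 RPKM in WT and 55.4 ± 5.43 RPKM in KO, Plxna3 of 26.1 ± 1.58 and 25.5 ± 2.28 RPKM, and Plxna4 of 18.7 ± 2.53 and 16.5 ± 2.95 RPKM (SD, n = 4). Plxna4, a receptor for Sema3a and class 6 semaphorins, was lowest in KO 4, at 12.4 RPKM, against 16.0 to 20.9 RPKM in WT. Plxna3 lies on the X chromosome, and its level in the KO libraries with Xist was 27.8, 22.8 and 26.9 RPKM against 24.6 RPKM in KO 4. These values overlap the WT range of 24.2 to 27.7 RPKM. Plxnb2, a receptor for Sema4c that is known to be needed by cerebellar granule cell precursors in mice, was the most abundant member, at 57.3 ± 3.20 and 58.4 ± 1.62 RPKM (SD, n = 4). Its 95% interval, from -0.084 to 0.14 on the log2 scale, was the narrowest of the 30. Plxnb1, a receptor for Sema4d, was at 27.4 and 29.0 RPKM, Plxnc1, the receptor for Sema7a, at 21.4 and 20.1 RPKM, and Plxnd1, the receptor for Sema3e, at 5.23 and 5.56 RPKM. Plxnb3, also on the X chromosome, was between 0.0164 and 0.0559 RPKM in all 8 libraries and was below the level for testing.

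**Figure D3:**
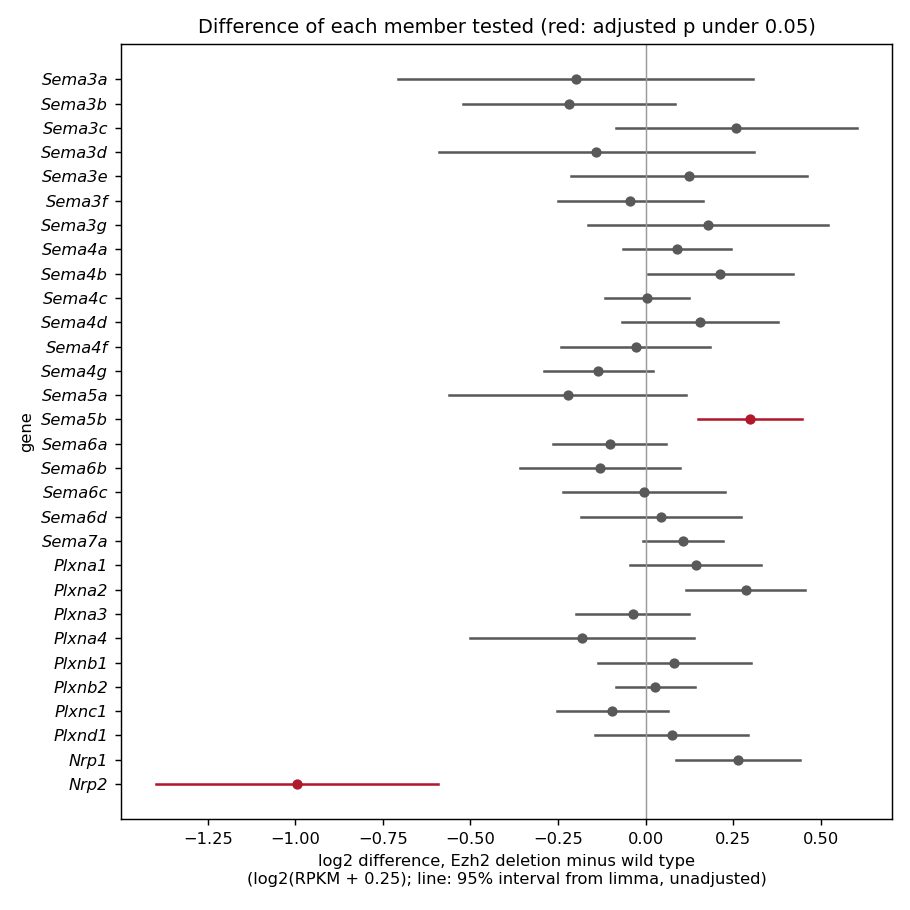
Log2 difference of KO minus WT for the 30 genes tested, on log2(RPKM + 0.25), with the 95% interval from limma, not adjusted for the number of genes. Nrp2 at -0.99 and Sema5b at 0.30, in red, had an adjusted p under 0.05, and the grey points lie between -0.22 and 0.29.

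The secreted class 3 semaphorins are the ligands that use neuropilins. By limma 0 of the 7 passed, with 0 at an unadjusted p under 0.05, and their log2 differences lay between -0.22 and 0.26, with a median of -0.044. Sema3f, the ligand that binds through Nrp2, was by far the most abundant of them. It was at 21.6, 23.2, 28.0 and 25.6 RPKM in WT 1 to 4 and at 25.9, 20.5, 24.4 and 24.5 RPKM in KO 1 to 4, and the groups overlapped. Its log2 difference was -0.044 (95% interval -0.25 to 0.16, limma adjusted p = 0.85). Sema3a, the ligand that binds through Nrp1, was at 10.6, 7.69, 6.07 and 5.41 RPKM in WT 1 to 4 and at 6.17, 8.54, 5.86 and 4.90 RPKM in KO 1 to 4. It varied most between WT libraries among the members above 1 RPKM, with a coefficient of variation of 31.1%, and its interval of -0.71 to 0.31 reached furthest below 0 among the members not called.

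The remaining class 3 genes were lower in level. Sema3c, which attracts some axons and is needed in heart development, had means of 3.73 ± 0.643 and 4.53 ± 0.871 RPKM in WT and KO (SD, n = 4, limma adjusted p = 0.416). Sema3e, the neuropilin-independent ligand of Plxnd1, was at 1.85 and 2.07 RPKM, Sema3b at 1.42 and 1.18 RPKM, Sema3g at 0.951 and 1.12 RPKM and Sema3d at 0.396 and 0.348 RPKM. The sum over the 7 genes was 40.4 ± 1.22 RPKM in WT and 39.4 ± 2.19 RPKM in KO (SD, n = 4), beside the fall in Nrp2.

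Class 5 semaphorins are transmembrane proteins with thrombospondin repeats, and act through A plexins in the mouse retina. Sema5b was at 13.9, 15.7, 15.4 and 15.3 RPKM in WT 1 to 4 and at 18.4, 16.9, 20.4 and 18.9 RPKM in KO 1 to 4. All KO libraries lay above all WT libraries, and the means were 15.1 ± 0.772 and 18.6 ± 1.46 RPKM (SD, n = 4). The difference on the log2 scale was 0.30, with a 95% interval of 0.15 to 0.45 (SE 0.067, limma adjusted p = 0.0419). Exact permutation over libraries, two-sided, gave p = 0.0286, again the smallest possible. Nrp1, which was not called, had the same value. This was a small change, since 11 of the 387 genes called higher in the table had risen less. The call was lost in 7 of the 8 fits that left out 1 library, all except that without KO 2, with adjusted p up to 0.108 and differences of 0.25 to 0.34 over the 8 fits. With all libraries it was lost without the filter on low values (limma adjusted p = 0.0531) and without trend and robust settings (0.0651). It was also lost in KO 4 against WT, where the difference was 0.32 (SE 0.0923, limma adjusted p = 0.136).

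Its relative Sema5a was lower in level, at 2.54, 2.14, 2.20 and 2.26 RPKM in WT 1 to 4 and at 1.68, 2.55, 2.12 and 1.48 RPKM in KO 1 to 4. KO 2 held the highest value of all libraries and KO 4 the lowest, and the log2 difference of -0.22 did not pass (limma adjusted p = 0.483).

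The membrane-bound class 4, 6 and 7 semaphorins held most of the abundant ligands. By limma 0 of these 11 passed, with 1 at an unadjusted p under 0.05. Sema6c had means of 53.3 ± 5.21 and 53.4 ± 7.54 RPKM (SD, n = 4), Sema4g of 31.3 and 28.4 RPKM, Sema4c of 27.6 and 27.7 RPKM, and Sema7a, which signals through Plxnc1 and integrins, of 21.5 and 23.2 RPKM. Sema4c, the ligand of Plxnb2, had a 95% interval of -0.11 to 0.12 on the log2 scale. Sema6a, the ligand of Plxna2 and Plxna4 that guides granule cell migration in mice, was at 19.5 and 18.1 RPKM, Sema6b at 19.9 and 18.2 RPKM and Sema6d, a ligand of Plxna1, at 19.5 and 20.3 RPKM. Sema4a was at 11.4 and 12.2 RPKM, Sema4f at 10.9 and 10.6 RPKM and Sema4d, the ligand of Plxnb1, at 4.56 and 5.11 RPKM. Sema4b was at 9.59 and 11.1 RPKM, with 4 of 4 KO libraries above the WT mean and a log2 difference of 0.21 (SE 0.093) that did not pass (limma adjusted p = 0.267).

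Among the 28 members tested and not called, 21 had a 95% interval that lay wholly within 0.5 of 0 on the log2 scale. Over the 28, the bounds reached -0.71 for Sema3a and 0.60 for Sema3c, so a moderate fall of Sema3a or rise of Sema3c lies within its interval. At an unadjusted limma p under 0.05 there were 3 of these 28, Sema4b, Plxna2 and Nrp1. With the called members included there were 5 of the 30 tested, beside 17.7% of all genes tested, so that count is near the background. The summed semaphorin level was 287 ± 12.8 RPKM in WT and 288 ± 12.8 RPKM in KO, and the summed plexin level 236 ± 15.9 and 247 ± 9.83 RPKM (SD, n = 4). Adjacent genes in the WT order of level were mostly not distinct, as library ranges overlapped in 21 of the 30 adjacent pairs. Nrp2 lay apart from the next lower gene, Sema4g, whose highest WT value was 34.8 RPKM against a lowest Nrp2 value of 38.3 RPKM.

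The lowest and highest values of the members were not spread evenly over the libraries. Of the 30 members tested, 10 had their lowest value of all 8 libraries in KO 4. These were Nrp2, Plxna4, Plxnc1, Plxnd1, Sema3a, Sema3d, Sema3e, Sema5a, Sema6b and Sema6d. WT 1 held the lowest value of 9 members, among them Plxna1, Plxna2, Plxnb2, Sema5b and Sema7a. The highest value fell in KO 1 for 7 members and in KO 2 for 7 others. The same counts over all genes tested were not made, so these cannot be read as a trait of the family. KO 2 had the greatest relative depth, 2.11, and KO 4 was the KO library without Xist. The part of depth or sex in these values was not tested.

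Tissue from outside the cerebellum was followed in the same way. Markers of the neighbouring midbrain summed to 35.8 to 44.2 RPKM in WT and 56.7 to 99.1 RPKM in KO, highest in KO 4. Of 7 tested, limma called 2 higher and 0 lower (4 at an unadjusted p under 0.05). Of the 7, 6 had a log2 difference above 0, and the median was 1.47. Lmx1a, the most abundant, was at 25.97 and 25.91 RPKM. Endothelial markers, from cells that also use Nrp1 and Plxnd1, overlapped at 60.7 to 73.4 RPKM in WT and 52.1 to 77.8 RPKM in KO, with Cldn5 the most abundant at 26.4 and 22.5 RPKM. Of the 8 genes limma called 0, and 0 had an unadjusted p under 0.05. Pericyte markers were at 27.8 to 36.0 and 20.9 to 32.7 RPKM, led by Rgs5 at 20.3 and 16.7 RPKM. Leukocyte markers were at 20.6 to 28.9 and 22.8 to 39.6 RPKM, led by C1qb at 5.20 and 5.96 RPKM. Limma called 0 of these 5 and 8 genes (0 and 2 at an unadjusted p under 0.05). Meningeal and mesenchymal markers stood at 2.80 to 7.39 and 4.15 to 20.6 RPKM, with Col3a1 at 1.27 and 1.87 RPKM. Choroid plexus markers were at 0.624 to 6.16 and 1.24 to 164 RPKM, with Ttr at 1.77 and 42.1 RPKM. The top value of both lists was in KO 2, and limma called 0 of 5 genes tested in each (1 and 0 at an unadjusted p under 0.05). Erythroid markers were at 386 to 463 and 317 to 683 RPKM, with Hbb-y at 307 and 408 RPKM, and limma called 0 of 9 (2 at an unadjusted p under 0.05). Foxd3, a transcription factor of the neural crest named after its values were seen, was at 0.0186, 0.163, 0 and 0.0277 RPKM in WT 1 to 4 and at 2.52, 1.23, 1.39 and 2.84 RPKM in KO 1 to 4, and was called higher (limma adjusted p = 0.00032). No marker named or summed here was at 0 in all libraries. The part of these tissues in the results was not tested.

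Beyond the family, 48 genes that act with it were followed as co-receptors, other neuropilin ligands and intracellular mediators. Of 46 tested, 2 were called higher and 0 lower by limma (9 at an unadjusted p under 0.05 in either direction), beside 3.45% and 17.7% of all genes tested, so both counts are near the background. The pathway genes had a median log2 difference of -0.016. Both called genes were mediators, of which 32 were tested. Dpysl4, a member of the collapsin response mediator family that links semaphorin signals to microtubules, was at 80.8, 79.6, 80.8 and 86.2 RPKM in WT 1 to 4 and at 112, 99.2, 109 and 113 RPKM in KO 1 to 4. The groups did not overlap. The log2 difference of 0.40 (SE 0.053, limma adjusted p = 0.0028) passed in each of the 21 alternatives run, changes of threshold included. For comparison, its relatives were not called, with log2 differences between -0.043 and 0.011 for Dpysl2, Dpysl3, Dpysl5 and Crmp1. Sh3bp1, a Rac GTPase-activating protein that acts downstream of Plxnd1 in endothelial cells, was at 0.905, 0.796, 0.739 and 0.743 RPKM in WT 1 to 4 and at 1.20, 1.73, 1.70 and 1.24 RPKM in KO 1 to 4. It was higher in all 4 KO libraries at a low level, and differed by 0.70 on the log2 scale (SE 0.14, limma adjusted p = 0.0245). The call was lost without WT 2, 3 or 4 or KO 2 or 3 (limma adjusted p 0.0551 to 0.0842) and in KO 4 against WT (0.51, limma adjusted p = 0.223).

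Of the co-receptors 0 of 10 tested were called by limma (3 at an unadjusted p under 0.05), and 2 more were below the level for testing. Chl1, an adhesion protein of the L1 family that acts with Nrp1 and is named here after its values were seen, was at 80.3, 67.8, 68.7 and 72.5 RPKM in WT 1 to 4 and at 54.8, 59.7, 54.6 and 37.3 RPKM in KO 1 to 4. All KO libraries were below WT and KO 4 was again the lowest, but the log2 difference of -0.50 (SE 0.136) did not pass (limma adjusted p = 0.0912). It passed without KO 4 (-0.36, limma adjusted p = 0.0254) and in KO 4 against WT (-0.95, limma adjusted p = 0.0075, again with 1 KO library). The other members of this list at an unadjusted p under 0.05, named for that reason after their values were seen, lay higher in every KO library and did not pass either. These were Ptk7, a receptor-like kinase without catalytic activity, with means of 17.5 and 20.8 RPKM in WT and KO and a log2 difference of 0.24 (limma adjusted p = 0.0695), and Met, the receptor of hepatocyte growth factor, with 0.595 and 0.864 RPKM and 0.40 (limma adjusted p = 0.118). For comparison, L1cam, the partner of Nrp1 in Sema3a signalling, was at 54.1 and 48.2 RPKM and Nrcam, the partner of Nrp2, at 34.1 and 33.1 RPKM, neither of them called (limma adjusted p = 0.469 and 0.782). The other neuropilin ligands gave 0 of 4 called by limma and 0 at an unadjusted p under 0.05, and Vegfa was at 23.6 and 24.2 RPKM.

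**Figure D4:**
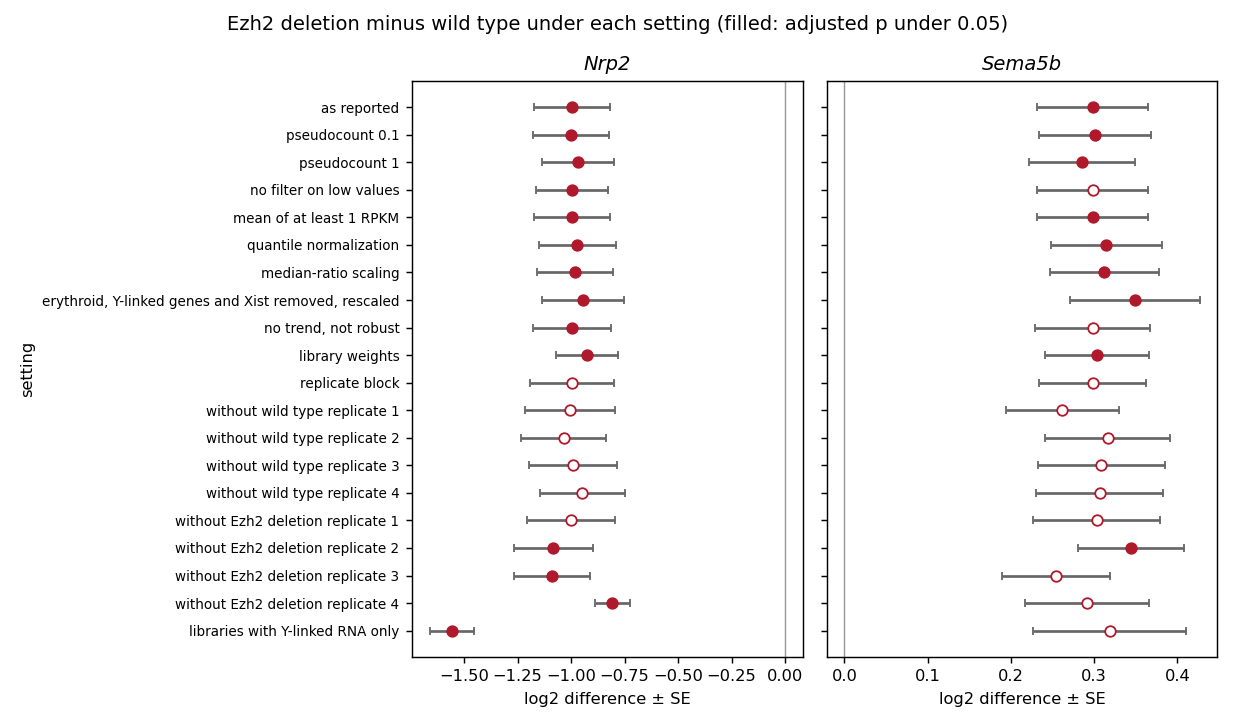
Log2 difference (± SE) of Nrp2 and Sema5b, KO minus WT, under each processing setting and with each library left out, filled where the limma adjusted p was under 0.05. Nrp2 stays between -1.56 and -0.81 and Sema5b between 0.25 and 0.35, and several fits with fewer libraries have open points. With all libraries, points are open for both genes under the replicate block. For Sema5b they are also open without the filter on low values and without trend and robust settings.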

How the data were processed

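The authors deposited 1 table of RPKM values, with a column per RNA-seq library, from which all values come. Bowtie, TopHat, SICER and Cuffdiff and build mm9 are named in the submitters' processing notes, with no versions and jointly for both assays. No source used here gives the annotation, strand use or treatment of multi-mapped reads, so overlapping genes are uncertain. Groups came from sample titles. Of 22552 genes, 3284 were at 0 in all libraries and 4989 others had a mean under 0.25 RPKM. The remaining 14279 were tested on log2(RPKM + 0.25) with limma 3.58.1 (eBayes, trend and robust, statmod 1.5.0) in R 4.3.3, as a two-sided test with p-values adjusted by Benjamini-Hochberg over all of them and called under 0.05. The log2 scale with a pseudocount understates changes of low genes. Exact permutation tests ran over 70 arrangements. A count model was not applied to RPKM. The fit was checked on simulated data.

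The members, the pathway and marker lists and the alternatives were chosen with earlier results of these data known. Named genes were all members, Ezh2, Xist and Ddx3y, up to 4 called genes of each pathway list and the most abundant gene of each marker list, and others are said to be chosen later or given for comparison. Of 1 marker list, that of the neural crest, the sum is not reported here. Of the list symbols, 1 was matched by an older name and 1 had no match. Replicate numbers of the titles were checked for pairing and did not pair the libraries. Alternatives covered pseudocount, filter, scaling, variance model, library weights, replicate block, each library left out, libraries with Y-linked RNA, and thresholds.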

Additional observations from a re-analysis of the deposited data

How the results depend on the processing

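Of the 21 alternatives, Nrp2 kept its direction in 21 and its call in 14, Sema5b in 21 and 9, and Dpysl4 in 21 and 21. These include thresholds of 0.01 and 0.1 on the reported fit. Neither can change a direction, and that of 0.1 cannot lose a call. Without each library in turn, members called higher numbered 0 to 1, members called lower 0 to 1, pathway genes called higher 1 to 2 and lower 0 to 1, and all genes 223 to 352 higher and 40 to 100 lower. With the replicate block there were 0 members higher and 0 lower (limma adjusted p = 0.0954 for Nrp2 and 0.076 for Sema5b), 1 pathway gene higher and 53 genes lower in all. Replicate numbers did not pair the libraries, with correlations of deviations from 0.0034 to 0.0867, none over 0.1. At a threshold of 0.01 there were 0 members higher, 0 lower, 1 pathway gene higher and 173 genes higher and 28 lower in all, and at 0.1 there were 2 members higher, 4 pathway genes higher and 1 lower, and 614 and 248 genes in all. Within libraries carrying Y-linked RNA, KO 4 against WT, with the lone KO library assumed to vary like WT, there were 0 members higher, 1 pathway gene higher (Dpysl4) and 2 lower (Chl1 and Mical3, chosen after the values were seen), and 195 genes higher in all. Members called higher numbered 0 without the filter on low values and without trend and robust settings. They numbered 2 (Plxna2 with Sema5b) with quantile normalization (Plxna2 adjusted p = 0.0423 by limma) and with erythroid and Y-linked genes and Xist removed and the libraries rescaled (0.0281), which also gave 55 genes lower in all. Library weights gave 1 pathway gene lower (Chl1) and 181 genes lower in all. Apart from the change of threshold or of the libraries used, the cause was not tested. Higher genes made up 78.5% of all calls, 89.7% after that removal and rescaling and 62.1% in KO 4 against WT.

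Signs changed among the alternatives run for 11 members, none of them Nrp2 or Sema5b, and with all libraries in the fit as reported none of the 11 was called. The reported differences of Sema3c, Sema3g and Sema3e were 0.26, 0.18 and 0.12. In KO 4 against WT the log2 difference was -0.10 for Sema3c, -0.25 for Sema3e, -0.040 for Sema3g, 0.0027 for Sema3f, -0.047 for Sema4c, 0.021 for Sema6c, -0.24 for Sema6d, -0.0011 for Plxnb2 and -0.20 for Plxnd1. After removal and rescaling it was 0.0075 for Sema3f, 0.023 for Sema4f, 0.047 for Sema6c and 0.014 for Plxna3, and for Sema6c it was 0.028 with quantile normalization and 0.01 with median-ratio scaling. With each library left out it ranged from -0.10 to 0.026 for Sema3f, -0.025 to 0.033 for Sema4c, -0.12 to 0.019 for Sema4f, -0.090 to 0.069 for Sema6c, -0.028 to 0.14 for Sema6d, -0.079 to 0.016 for Plxna3 and -0.0070 to 0.058 for Plxnb2. The number of reads behind each value is unknown, which limits what can be said of Plxnb3 and other members under 1 RPKM.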
